A study of Mus musculus with 12 samples.

Results

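The 31 genes described here are genes known for their expression in the choroid plexus epithelium. They were taken as a fixed list of symbols, matched to the Ensembl IDs of a table of 43629 genes, and all 31 were found. Each was read in all 12 libraries of a mouse brain RNA-seq series, as a measure of how much choroid plexus RNA each tissue piece held. The libraries came from 4 groups of 3, females and males that had been injected as newborns into the cerebral ventricles and were 3 months old at harvest. The PBS groups received phosphate-buffered saline, and the collagen domain groups an rAAV, a recombinant virus used to carry genes into cells, with a collagen domain construct, which the series title ties to the secreted protein C1qTNF3. No group received an rAAV without that construct, so the vector and the construct cannot be told apart. A strain and the promoter of the construct are not given in the sources used here. The RNA was poly(A) RNA from pulverised frozen forebrain of 1 hemisphere, and whether each library came from a separate mouse is not stated, so p-values measure the spread between these libraries.

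The choroid plexus is a tuft of fenestrated capillaries and stroma, covered by 1 layer of epithelium, that hangs into the brain ventricles. Its epithelium makes most of the cerebrospinal fluid by moving ions and water, forms the barrier between blood and that fluid, and secretes carrier proteins and growth factor regulators. The tissue is small and loosely attached, so a dissected piece of brain can keep more or less of it. In bulk RNA, fewer cells of a type and less RNA per cell cannot be told apart.

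Libraries held 39272127 to 52323985 counted reads, and every member was detected in every library, with at least 12 reads (Lmx1a in PBS female 1). All 31 members were among the 19145 genes that passed the filter on low counts. Reads of the construct's gene C1qtnf3 and of the sex-linked genes Xist and Ddx3y contradicted the treatment label in 4 libraries, the sex label in 4, and either in 5. PBS female 2, PBS male 1 and collagen domain female 1 went against both labels, collagen domain female 3 against its treatment label alone and collagen domain male 3 against its sex label alone. All directions by treatment or sex below are therefore differences between libraries as labelled. Cerebellum and hindbrain genes were also unevenly present in these forebrain pieces: their mean log2 level was above the mean of all libraries in 5 (PBS female 2 and 3, PBS male 3, collagen domain female 2 and collagen domain male 2) and below it in 7.

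The list holds 3 homeodomain transcription factors, Otx2, Msx1 and Lmx1a, and promoter sequence was read to show which promoters of the list carry letters that such factors are known to bind. RefSeq promoters on GRCm38.p6 were at hand for 25 of the 31 members, and Slc12a2, Ttr, Folr1, Sostdc1, Sulf1 and Clic6 were not among them. The 250 bases before each annotated start were searched on both strands for TAATCC (an Otx-type motif, GGATTA in reverse), TAATTG (Msx-type, CAATTA in reverse) and TAATTA (Lmx-type, its own reverse complement). The 3 motifs share the letters TAAT and can overlap. TAATCC lay before a start of 3 members (Abca4, Ace and Otx2) and of 7.21% of 27025 genes in the table. TAATTG lay before 4 members (Cab39l, Kcnj13, Otx2 and Tmem72) and 8.30% of genes, and TAATTA before 2 (Abca4 and Otx2) and 5.65%. Otx2, at chr14:48665110-48665359 on the minus strand, Abca4, at chr3:122044210-122044459 on the plus strand, Ace, at chr11:105967698-105967947 on the plus strand, and Kcnj13, at chr1:87394730-87394979 on the minus strand, are shown because they hold matches. Kcne2, at chr16:92292139-92292388 on the plus strand, is shown because it followed Ttr most closely below, and its window held none of the 3. All are written 5′ to 3′ toward the start, with capitals marking a match on either strand. A match describes letters only, and no binding was measured here.
Otx2: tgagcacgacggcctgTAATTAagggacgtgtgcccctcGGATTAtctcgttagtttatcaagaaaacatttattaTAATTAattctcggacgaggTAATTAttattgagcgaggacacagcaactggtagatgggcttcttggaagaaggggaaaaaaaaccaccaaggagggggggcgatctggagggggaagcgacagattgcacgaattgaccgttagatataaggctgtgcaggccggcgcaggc
Abca4: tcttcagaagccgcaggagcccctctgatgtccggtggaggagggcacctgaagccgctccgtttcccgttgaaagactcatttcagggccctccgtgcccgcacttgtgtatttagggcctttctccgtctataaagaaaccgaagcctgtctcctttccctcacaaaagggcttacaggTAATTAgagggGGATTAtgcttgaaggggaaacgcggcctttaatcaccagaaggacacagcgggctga
Ace: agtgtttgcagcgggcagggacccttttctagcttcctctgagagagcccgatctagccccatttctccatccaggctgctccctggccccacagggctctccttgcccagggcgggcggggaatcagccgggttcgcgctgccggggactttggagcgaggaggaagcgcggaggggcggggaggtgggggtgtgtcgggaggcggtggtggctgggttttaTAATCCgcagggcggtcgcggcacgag
Kcnj13: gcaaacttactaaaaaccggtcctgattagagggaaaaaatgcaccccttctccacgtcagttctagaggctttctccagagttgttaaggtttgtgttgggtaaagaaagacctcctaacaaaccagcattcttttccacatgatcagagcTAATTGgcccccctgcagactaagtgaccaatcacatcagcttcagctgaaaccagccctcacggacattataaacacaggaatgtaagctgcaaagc
Kcne2: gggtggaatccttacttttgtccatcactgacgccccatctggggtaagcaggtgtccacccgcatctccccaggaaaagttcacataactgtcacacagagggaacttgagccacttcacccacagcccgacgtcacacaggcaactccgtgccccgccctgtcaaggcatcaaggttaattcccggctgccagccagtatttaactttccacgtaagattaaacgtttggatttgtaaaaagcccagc

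Among the secreted products, Ttr, the carrier of thyroid hormone and of retinol-binding protein in cerebrospinal fluid, was the most abundant member. Its level per kilobase of exon had a median of 521 CPM per kb, against 9.31 for the next member, Slc12a2, and 0.141 for the lowest, Tmem72. In libraries 1 to 3 of each group, Ttr stood at 337, 464 and 606 CPM in PBS females, 466, 685 and 617 in PBS males, 620.1, 711 and 896 in collagen domain females and 334, 722 and 799.7 in collagen domain males. The lowest library was collagen domain male 1 and the highest collagen domain female 3, 2.69-fold apart, and the lowest PBS library, PBS female 1, was almost as low as the first. In females the 3 collagen domain libraries lay above the 3 PBS libraries, while in males the ranges overlapped. Kl, the fibroblast growth factor co-receptor Klotho, which is also shed into the fluid, stood at 8.71, 18.2 and 28.2 CPM in PBS females, 16.2, 23.5 and 15. in PBS males, 18.1, 26.1 and 28.1 in collagen domain females and 12.2, 25. and 25.1 in collagen domain males. PBS female 1 was the lowest and collagen domain male 1 the next, and PBS and collagen domain ranges overlapped in both sexes. Sostdc1, an inhibitor of BMP and Wnt signals, stood at 3.55, 5.52 and 6.21 CPM in PBS females, 3.69, 8.4 and 5.68 in PBS males, 6.72, 9.85 and 6.1 in collagen domain females and 5.9, 8.76 and 12.7 in collagen domain males. Its highest library was collagen domain male 3, and its 2 lowest were PBS female 1 and PBS male 1. F5, coagulation factor V, ran from 1.63 to 9.81 CPM with a median of 7.15, a 6.02-fold range that was the widest of the 31. Col8a2, a collagen VIII chain, ran from 2.22 to 7.42 (median 4.96), and Wfdc2, a secreted protease-inhibitor-like protein, from 0.549 to 1.20 (median 0.781). Sulf1, which trims sulphate groups from heparan sulphate outside the cell, ran only from 24.7 to 33.2 CPM (median 27.9).

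**Figure D1:**
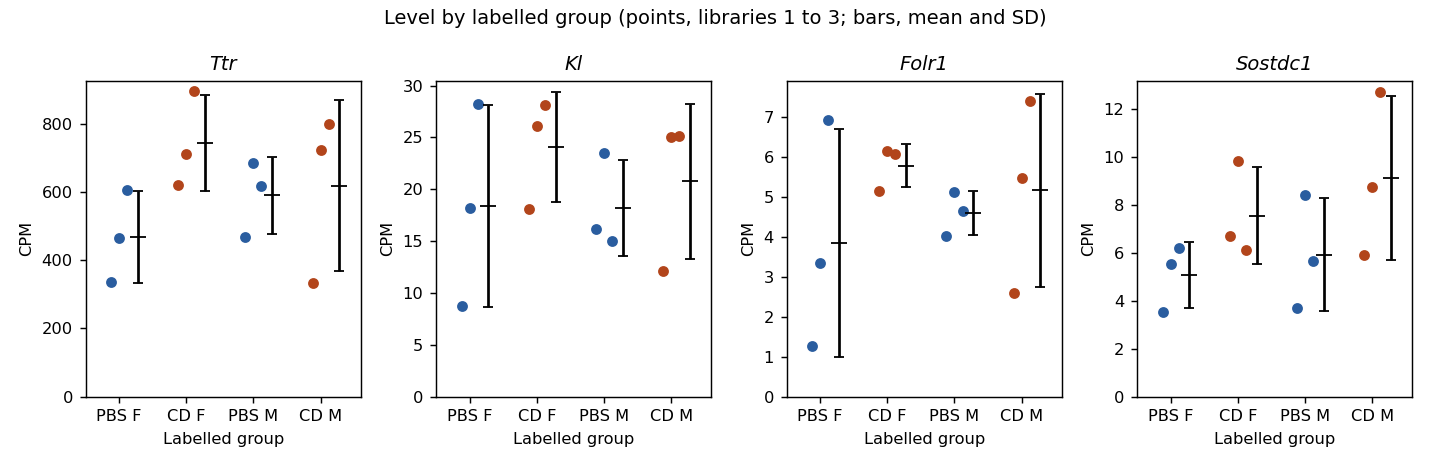
Level in CPM of Ttr, Kl, Folr1 and Sostdc1 (panels) in each labelled group (PBS F and PBS M, PBS females and males; CD F and CD M, collagen domain females and males). Points are libraries and bars are the mean and SD of 3. Ttr separates the groups in females, and the ranges of Kl, Folr1 and Sostdc1 overlap in both sexes.

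Both receptors of the list followed the same order of low libraries. Folr1, the receptor that carries folate across the epithelium, stood at 1.27, 3.35 and 6.91 CPM in PBS females, 4.02, 5.11 and 4.63 in PBS males, 5.15, 6.13 and 6.05 in collagen domain females and 2.6, 5.48 and 7.38 in collagen domain males. Prlr, the prolactin receptor, stood at 6.35, 9.1 and 12.6 CPM in PBS females, 11.2, 12.6 and 9.97 in PBS males, 8.69, 12.5 and 14.7 in collagen domain females and 7.37, 11.9 and 12.9 in collagen domain males. PBS female 1 was the lowest and collagen domain male 1 the next lowest for both, and in neither sex did the treatments separate.

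The 10 transport and junction genes fell into a group that varied widely and a group that varied little or otherwise. Kcne2, a subunit of potassium channels, stood at 1.25, 2.14 and 3.91 CPM in PBS females, 2.16, 3.48 and 2.49 in PBS males, 2.53, 4.21 and 5.29 in collagen domain females and 1.72, 4.1 and 4.1 in collagen domain males. Slc4a5, a sodium bicarbonate cotransporter, stood at 1.04, 3.52 and 5.43 CPM in PBS females, 2.76, 4.76 and 2.98 in PBS males, 3.22, 6.18 and 4.56 in collagen domain females and 1.72, 5.82 and 4.19 in collagen domain males. Cldn2, which forms cation pores in the leaky tight junctions of this epithelium, stood at 0.919, 2.52 and 3.55 CPM in PBS females, 2.25, 3.39 and 2.83 in PBS males, 2.11, 4.56 and 4.26 in collagen domain females and 1.47, 4.03 and 4.28 in collagen domain males. In all 3, PBS female 1 and collagen domain male 1 were the 2 lowest of 12. Clic6, a member of the chloride intracellular channel family, stood at 7.54, 15.3 and 19.3 CPM in PBS females, 10.9, 19.8 and 12.7 in PBS males, 12.8, 20.6 and 19.2 in collagen domain females and 10.4, 19.3 and 20.4 in collagen domain males. Kcnj13, the inward rectifier potassium channel Kir7.1, stood at 0.48, 1.33 and 1.92 CPM in PBS females, 1.21, 1.62 and 0.89 in PBS males, 1.41, 1.84 and 2.14 in collagen domain females and 0.884, 1.49 and 1.71 in collagen domain males. These 2 had the same 2 lowest libraries, although for Kcnj13 PBS male 3 lay beside collagen domain male 1. Aqp1, the water channel of the fluid-facing membrane, stood at 5.43, 5.06 and 5.53 CPM in PBS females, 5.41, 7.34 and 4.42 in PBS males, 6.86, 6.78 and 6.78 in collagen domain females and 4.67, 5.48 and 6.27 in collagen domain males. Its range was 1.66-fold, and in females all 3 collagen domain libraries lay above all 3 PBS libraries.

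Slc12a2, the sodium-potassium-chloride cotransporter NKCC1, which is also made in neurons and glia, stood at 97.6, 116 and 117 CPM in PBS females, 90.6, 109 and 101 in PBS males, 96.9, 115 and 90.6 in collagen domain females and 102, 122 and 95.9 in collagen domain males. It varied only 1.35-fold. Its lowest libraries, level at 90.6 CPM, were collagen domain female 3, the highest for Ttr, and PBS male 1, where Ttr stood at 466 CPM. Trpm3, a calcium-permeable channel that is also made in neurons, stood at 23.8, 61.2 and 64.5 CPM in PBS females, 48., 54. and 53.8 in PBS males, 46.5, 75.1 and 52.3 in collagen domain females and 45.6, 76.3 and 44.6 in collagen domain males. Its 4 highest libraries, collagen domain male 2, collagen domain female 2, PBS female 3 and PBS female 2, were all among the 5 with more cerebellum and hindbrain RNA. Slc29a4, a monoamine transporter, split the libraries the same way without overlap, with 13.4 to 18.0 CPM in those 5 and 7.56 to 11.1 CPM in the other 7. Trpv4, an osmotically and mechanically gated channel, ran from 1.04 to 2.80 CPM (median 1.89).

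The enzymes and carriers of the list include genes of retinoid handling that are best known from the eye. Abca4, a retinoid flippase, ran from 2.51 to 6.13 CPM (median 4.53), and Rdh5, a retinol dehydrogenase, from 1.47 to 3.49 (median 2.61). Ace, angiotensin-converting enzyme, ran from 10.1 to 24.7 CPM (median 19.4). Steap1, a member of the STEAP metalloreductase family, ran from 0.639 to 1.86 (median 1.06). Car12, a membrane carbonic anhydrase, ran from 12.4 CPM in PBS male 3 to 26.9 in PBS female 3 (median 20.9), and was not low in collagen domain male 1, at 26.8.

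Of the transcription factors, Otx2, which is needed to build and keep the choroid plexus, stood at 2.61, 4.48 and 5.47 CPM in PBS females, 3.34, 4.1 and 5.31 in PBS males, 3.64, 6.39 and 4.89 in collagen domain females and 2.55, 6.03 and 4.32 in collagen domain males. Collagen domain male 1 and PBS female 1 were again the lowest, and 4 of the 5 libraries with more cerebellum and hindbrain RNA were the 4 highest. Msx1, a roof plate homeodomain factor, stood at 3.3, 4.37 and 4.62 CPM in PBS females, 3.98, 5.51 and 4.0 in PBS males, 4.08, 5.61 and 5.87 in collagen domain females and 3.81, 4.85 and 4.81 in collagen domain males. Lmx1a, a LIM homeodomain factor of the roof plate and its derivatives, stood at 0.251, 0.791 and 0.698 CPM in PBS females, 0.376, 0.33 and 0.445 in PBS males, 0.603, 1.08 and 0.582 in collagen domain females and 0.393, 1.1 and 0.576 in collagen domain males. Msx1 was lowest in the same 2 libraries as Otx2, while Lmx1a was lowest in PBS female 1 and PBS male 2 and highest in collagen domain male 2 and collagen domain female 2.

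Calml4, a calmodulin-like protein of brush borders, stood at 1.42, 1.67 and 2.15 CPM in PBS females, 2.3, 3.88 and 2.85 in PBS males, 2.64, 2.57 and 4.24 in collagen domain females and 2.04, 3.38 and 4.81 in collagen domain males. Tmem72, a membrane protein, stood at 0.668, 2.46 and 3.04 CPM in PBS females, 1.92, 3.6 and 1.86 in PBS males, 2.39, 2.83 and 3.54 in collagen domain females and 2.14, 3.54 and 2.26 in collagen domain males. Calml4 was highest in collagen domain male 3 and Tmem72 in PBS male 2, and PBS female 1 was the lowest for both. Wdr86 ran from 0.491 to 2.35 CPM (median 1.68). Cab39l, a scaffold of the LKB1 kinase, ran from 37.3 to 46.8 CPM (median 42.8).

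Read across the whole list, PBS female 1 was the lowest library for 20 of 31 members, collagen domain male 1 for 6 and PBS male 3 for 4. At least 1 of PBS female 1 and collagen domain male 1 was among the 2 lowest for 30 members, and both were for 15. How often each library was lowest over all genes was not computed. Over all genes PBS female 1 differed from PBS female 2 and 3 by chi-square values of 89.8 and 102 per degree of freedom, against 14.4 between those. PBS female 1 lay below the mean of cerebellum and hindbrain genes, and PBS female 2 and 3 above it. In PBS males, PBS male 3 lay above it and differed from PBS male 1 and 2 by 47.6 and 56.3, against 11.9 between those. The part of cerebellum and hindbrain RNA in these values was not tested. The mitochondrial share of reads was highest in PBS female 1, at 9.86%, followed by PBS male 3 at 9.67%. Collagen domain male 1 had the lowest share, 7.37%. The summed level of the members other than Ttr was 275 CPM in PBS female 1 and 338 in collagen domain male 1, against 480.2 in the highest library, collagen domain male 2. PBS female 1 and collagen domain male 1 belong to opposite treatments and sexes, and the reads of neither contradict its labels.

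**Figure D2:**
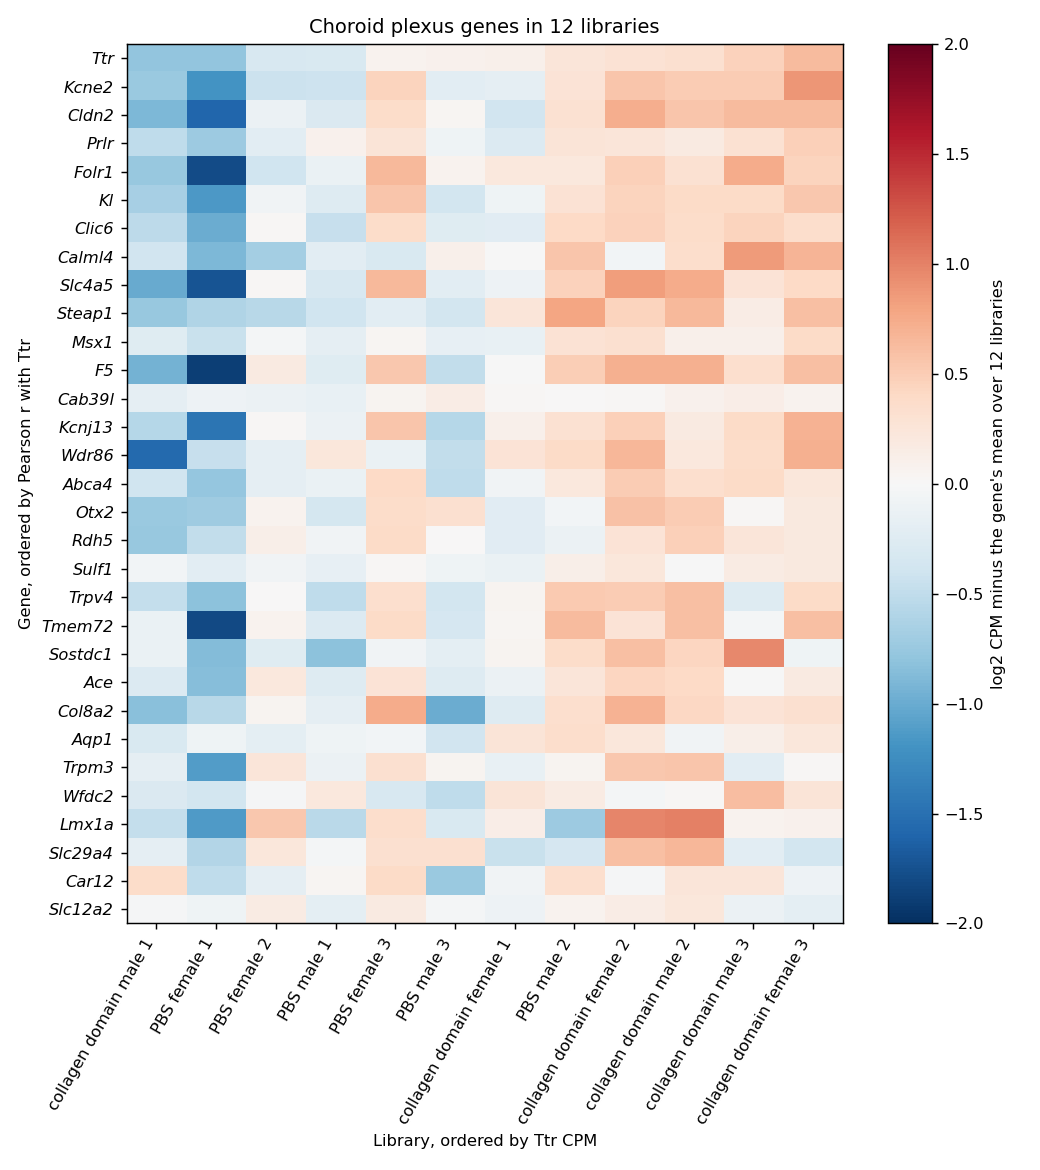
Each cell is the log2 CPM of 1 gene (row, ordered by its Pearson correlation with Ttr) in 1 library (column, ordered by Ttr CPM), minus the mean of that gene over the 12 libraries. Most rows are blue in collagen domain male 1 and PBS female 1, and the lowest rows, such as Slc29a4, Car12 and Slc12a2, do not follow the column order.

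Whether the members rose and fell together from library to library was asked by correlating each with Ttr over the 12 libraries, on log2 CPM, with permutation p-values from 100000 resamples adjusted by Benjamini-Hochberg over the other 19144 genes tested. Both values of a pair come from the same library and scaling. The median Pearson r over all 19144 genes was -0.0040. Of the 30 other members, 30 had r above 0, with a median of 0.78. An r of 0.8 or more was reached by 14 members and by 35 genes in all (0.183%), and an unadjusted p under 0.05 with r above 0 by 24 members against 2.17% of genes. The members were chosen with earlier results of these data known, so these counts against all genes are a description. No gene passed after adjustment (0%), and the smallest adjusted p was 0.191. The smallest p that 100000 resamples can give is 1e-05, which leaves a single gene at 0.191 after adjustment. With that number of resamples 1 gene alone could therefore not pass, whatever its r. With 1000000 resamples, chosen after the first result was seen, Kcne2 passed and no other gene did (permutation test, adjusted p = 0.0383; 1 gene, 0.00522%).

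Kcne2 was the closest of all 19144 genes to Ttr, with r = 0.94 (permutation p = 1e-05, the smallest that 100000 resamples can give) and rho = 0.93 (permutation p = 3e-05). Without the 2 libraries farthest from the median of Ttr, collagen domain male 1 and PBS female 1, its r was 0.90. Cldn2 had r = 0.91 (permutation p = 0.0001, with rho = 0.84 at permutation p = 0.001) and 0.79 without those 2. Prlr, Folr1 and Kl each had r = 0.88 (permutation p = 0.00028, 9e-05 and 0.00031). Their rho was 0.79, 0.80 and 0.71 (permutation p = 0.0033, 0.0029 and 0.013), and their r without the 2 libraries was 0.70, 0.79 and 0.70. Over the list, 12 members had r above 0 with an unadjusted p under 0.05 once those 2 libraries were left out (1.25% of all genes), against 24 with them. Those 2 libraries held the lowest Ttr, so leaving them out narrowed its range, and the median r over members went from 0.78 to 0.58. A fall in r alone therefore cannot show that a relation rests on those libraries. The r of Ace went from 0.69 to 0.35 and that of Rdh5 from 0.77 to 0.36. That of Otx2 likewise went from 0.77 to 0.41, and its rho in all 12 was 0.58 (permutation p = 0.0526). The r of Slc4a5 went from 0.85 to 0.57 and that of F5 from 0.84 to 0.58. The r of Trpm3, whose p was 0.0574 in the permutation test of all 12, went from 0.56 to 0.03.

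The steepness of the relation differed between members. Per unit of log2 Ttr, the slope of log2 CPM was 1.41 (SE 0.291) for F5, 1.37 (SE 0.273) for Slc4a5, 1.36 (SE 0.196) for Cldn2, 1.34 (SE 0.227) for Folr1 and 1.25 (SE 0.145) for Kcne2. It was 1.01 (SE 0.176) for Kl, but 0.46 (SE 0.093) for Msx1, 0.23 (SE 0.0651) for Sulf1 and 0.20 (SE 0.0427) for Cab39l. Cab39l thus varied little in level, yet its order over libraries still followed Ttr (r = 0.82, permutation p = 0.00122; rho = 0.72, permutation p = 0.0109; r = 0.75 without the 2 libraries).

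The 5 members least like Ttr were Wfdc2 (r = 0.54, permutation p = 0.0707), Lmx1a (0.53, permutation p = 0.0779), Slc29a4 (0.25, permutation p = 0.432), Car12 (0.17, permutation p = 0.602) and Slc12a2 (0.07, permutation p = 0.826). Their rho was 0.62, 0.40, 0.09, 0.04 and -0.16 (permutation p = 0.0359, 0.202, 0.783, 0.904 and 0.618). The sign of r for Slc12a2 was negative in 3 of the 12 sets of 11 libraries, and that for Car12 was -0.10 without PBS female 1. In the 7 libraries left without the 5 that contradict a label, r moved the other way for Slc12a2, to 0.74, and for Slc29a4, to 0.72. In the same 7 it was 0.67 for Lmx1a, 0.52 for Wfdc2 and 0.16 for Car12, and 2.41% of all genes had r of 0.8 or more.

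**Figure D3:**
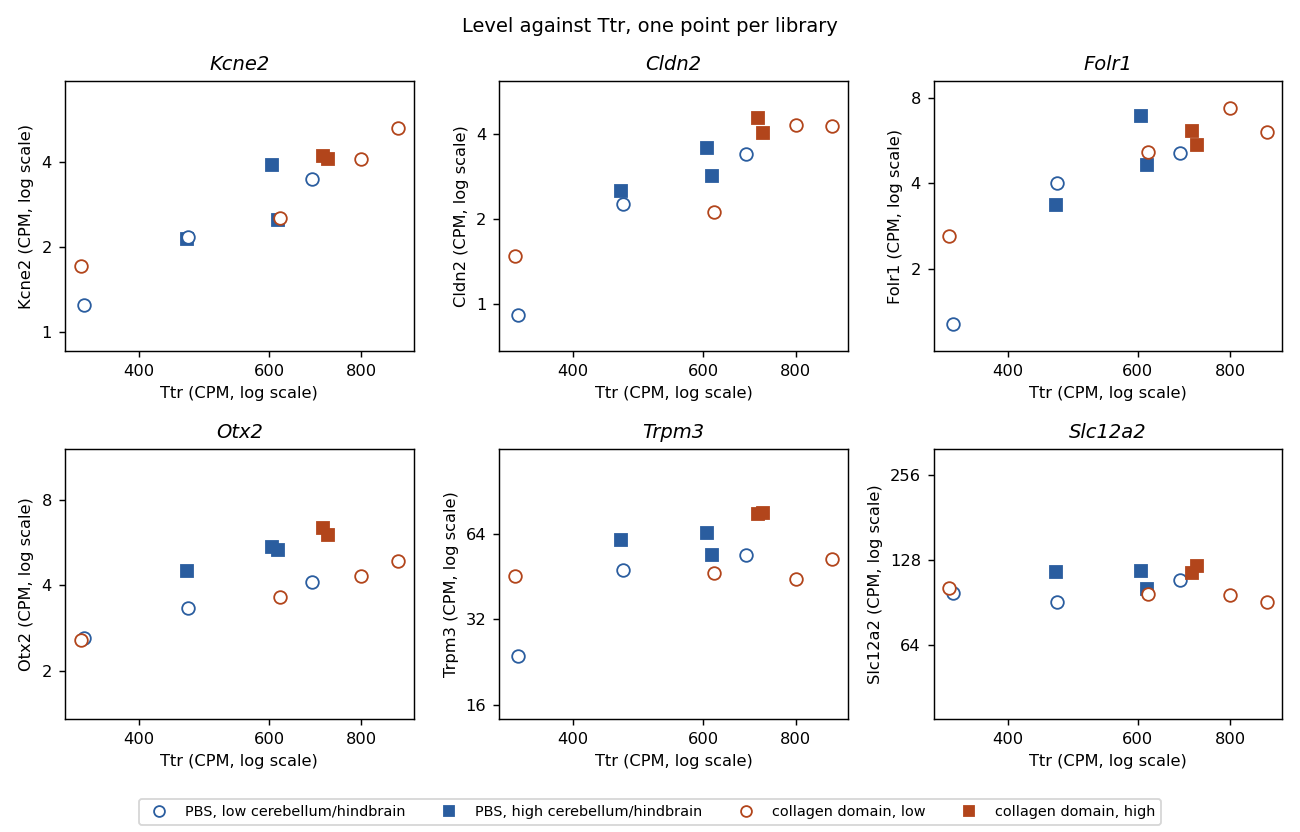
CPM of 6 members against CPM of Ttr, both on log scales, 1 point per library; blue is PBS, red is collagen domain, filled squares are the 5 libraries with more cerebellum and hindbrain RNA and open circles the other 7. Kcne2, Cldn2 and Folr1 are lowest in the 2 libraries where Ttr is lowest, Otx2 forms 2 bands, and Slc12a2 is nearly flat.

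The members differed in how their level went with that of cerebellum and hindbrain RNA. When log2 CPM was fitted on Ttr and the mean log2 level of cerebellum and hindbrain genes together, the slope on that mean was 0.11 (SE 0.00786) for Otx2, 0.16 (SE 0.0204) for Slc29a4, 0.11 (SE 0.0354) for Trpm3, 0.15 (SE 0.0539) for Lmx1a and 0.05 (SE 0.0147) for Slc12a2. It was 0.02 (SE 0.0289) for Kcne2 and 0.03 (SE 0.0451) for Folr1, and below 0 for Calml4, at -0.08 (SE 0.0289), Wfdc2, at -0.07 (SE 0.0285), and Aqp1, at -0.05 (SE 0.0214). These slopes are a description, with no test. After that mean was removed from both genes, the r of Otx2 with Ttr went from 0.77 to 0.98 and that of Rdh5 from 0.77 to 0.88. No r after this removal was computed without collagen domain male 1 and PBS female 1. Before the removal, the r of Otx2 without these libraries was 0.41 and that of Rdh5 0.36. In these residuals 4 of 19144 genes (0.0209%) passed the adjustment, namely Otx2, Kcne2, Cldn2 and Col8a1, which is no member (permutation test, adjusted p = 0.0479 for each member). Within the 7 libraries below the mean, Otx2 had r = 0.99 and the members a median of 0.89, with 24 of 30 at r above 0 and an unadjusted p under 0.05, against 2.28% of all genes. Those 7 include collagen domain male 1 and PBS female 1. No correlation was computed within the 5 libraries above the mean.

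**Figure D4:**
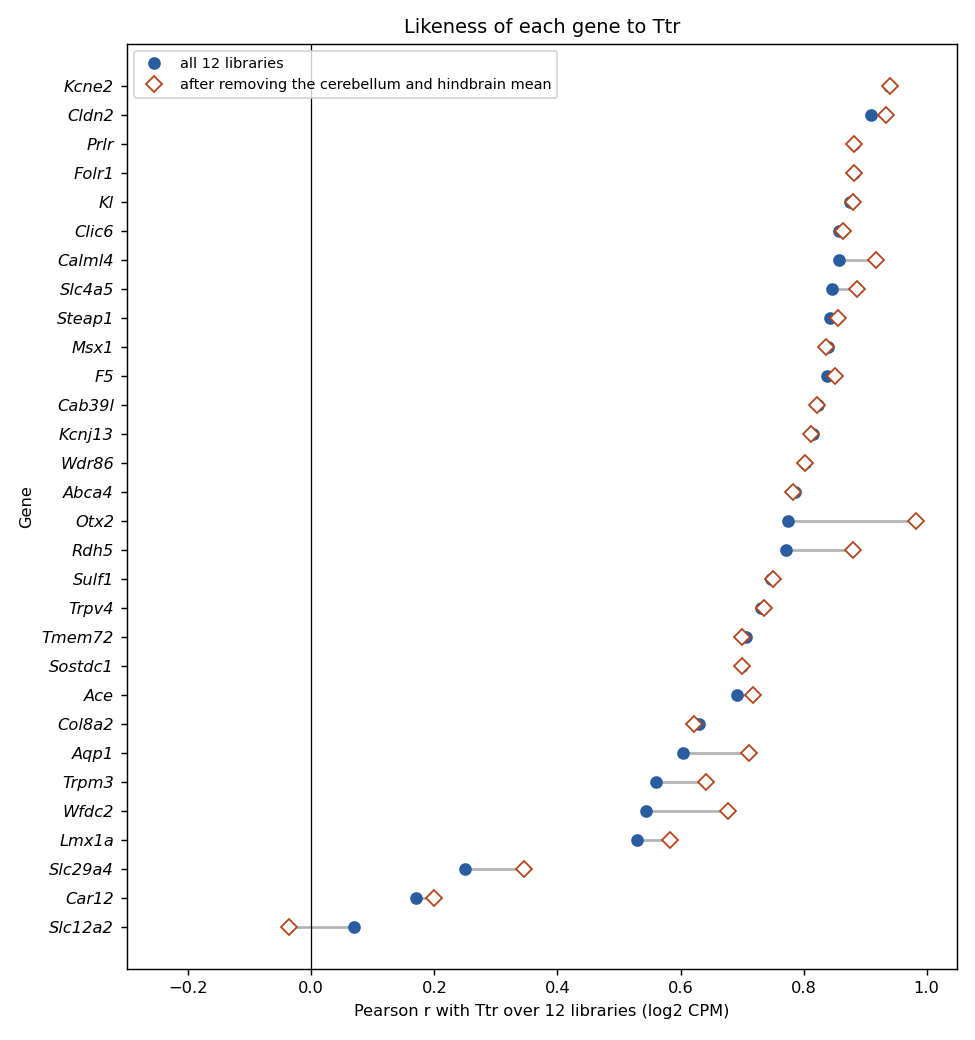
Pearson r with Ttr over 12 libraries for each of 30 members, on log2 CPM (filled circles) and after removal of the mean of cerebellum and hindbrain genes (open diamonds). Otx2 moves from 0.77 to 0.98, while Slc29a4, Car12 and Slc12a2 stay below 0.4 in both.

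Outside the list, the genes most like Ttr over the 12 libraries included Col8a1 (r = 0.93), a collagen VIII chain and partner of Col8a2, Ttc23 (0.91), Prr32 (0.90), Piga (0.89), Mdfic (0.89), Large2 (0.89), Slc2a12 (0.88), Krt18 (0.87), Pmaip1 (0.86), Trmu (0.85), Tubb4b-ps2 (0.83), Shld2 (0.83), 1500015O10Rik (0.83) and Ttc29 (0.83). None passed the adjustment over all genes (permutation test, smallest adjusted p = 0.191). Their r without collagen domain male 1 and PBS female 1 lay between 0.63 (Slc2a12) and 0.92 (1500015O10Rik). Tubb4b-ps2 is a pseudogene of a tubulin gene, and how reads were shared between such copies is not given in the sources used here.

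Other cell types that a piece with more choroid plexus could hold were read from lists of markers, by counts only. These lists were chosen with earlier results of these data known. Of 12 genes taken as markers of the ependyma, the lining of the ventricles, 11 had r above 0 with Ttr. An unadjusted permutation p under 0.05 was reached by 8, and the median r was 0.60. All 12 hypothalamic genes, such as Avp and Oxt, had r above 0 and 6 such a p, with a median r of 0.54. For 12 fibroblast and meningeal genes the counts were 4 and 0 (median r -0.05), for 8 cortical and neuronal genes 0 and 0 (median r -0.38), and for 17 cerebellum and hindbrain genes 17 and 0 (median r 0.15). Of 3 measured genes of fenestrated endothelium 2 had r above 0 and 0 such a p, and Gpihbp1 of that list was at 0 in some library. No gene of these lists passed the adjustment over all genes, and the part of ependymal and hypothalamic RNA in the result was not tested.

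The study's own comparison was between mice given the collagen domain vector and mice given PBS. As labelled, 30 of 31 members had a higher fitted level with collagen domain over both sexes, with a median log2 fold change of 0.28, but none passed the test. Of all 19145 genes, 50.1% were above 0, with a median of 0.00022. Most members rose and fell together from library to library, so they are not 31 independent observations, here or within each sex below. The quasi-likelihood test of edgeR called 0 members and 0 of 19145 genes (0%). It gave 1 member and 354 genes an unadjusted p under 0.05, and DESeq2 called 0 genes. C1qtnf3, the construct's gene, was thus not called either. Its reads ran from 8 in collagen domain female 3 to 4966 in collagen domain female 2. With the treatment label contradicted in 4 libraries, 0 calls cannot show that the members do not differ, here or within each sex below. The median over members was 0.12 without PBS female 1, and it was 0.19 without the 5 libraries that contradict a label.

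The members of smallest p were Sostdc1, Calml4 and Lmx1a. For Sostdc1 the mean was 5.51 ± 1.79 CPM in the 6 PBS libraries and 8.34 ± 2.65 CPM in the 6 others (SD), a log2 fold change of 0.60 (SE 0.235, edgeR adjusted p = 1). Calml4 stood at 2.38 ± 0.892 and 3.28 ± 1.07 CPM, a log2 fold change of 0.51 (SE 0.238, edgeR adjusted p = 1). Lmx1a stood at 0.482 ± 0.215 and 0.722 ± 0.293 CPM, a log2 fold change of 0.60 (SE 0.321, edgeR adjusted p = 1). In all 3, PBS and collagen domain libraries overlapped. Without the 5 libraries that contradict a label, the log2 fold change of Calml4 was 0.01 and that of Lmx1a 1.03. Lmx1a stood at 0.37 without collagen domain male 2.

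Mean Ttr was 529 ± 129 CPM in PBS libraries and 680.3 ± 194 CPM in collagen domain libraries (SD, n = 6 for both). The difference in mean log2(CPM + 1) was 0.34, with p = 0.245 (exact permutation test within sexes, two-sided, 400 arrangements). Without collagen domain male 1, the lowest library, it was 0.53 with p = 0.015 (exact permutation test, 200 arrangements), and without any other single library p was between 0.18 and 0.475. Without the 5 libraries that contradict a label it was 0.12, with p = 0.778 (exact permutation test, 18 arrangements). Among the 7 libraries with less cerebellum and hindbrain RNA, Ttr lay between 337 and 685 CPM in 3 PBS libraries and between 334 and 896 in 4 collagen domain libraries. In the other 5, it lay between 464 and 617 CPM in 3 PBS libraries and between 711 and 722 in 2 collagen domain libraries.

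Within females, 28 of 31 members were above 0 with a median of 0.38 (47.6% of all genes, median -0.0057), and edgeR called 0 members and 0 genes (0%). In edgeR, 2 members and 280 genes had an unadjusted p under 0.05, and DESeq2 called 0. Those of smallest p were Calml4 at 0.85 (SE 0.326), Steap1 at 0.88 (SE 0.374) and Ttr at 0.66 (SE 0.310), each with an edgeR adjusted p of 1. Calml4 stood at 0.51 without the 5 libraries. The 3 collagen domain females lay above the 3 PBS females for 5 members, Ttr, Aqp1, Calml4, Steap1 and Wdr86, against 2.93% of all genes, and below them for 0, against 2.62%. Of these 6 libraries, 3 contradict a label. The median over members was 0.11 without PBS female 1, 0.63 without PBS female 3 and 0.59 without the 5 libraries.

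Within males, 27 of 31 members were above 0 with a smaller median of 0.14 (52.3% of all genes, median 0.0080). The edgeR test called 0 members and 0 genes (0%), with 0 members and 325 genes at an unadjusted p under 0.05, while DESeq2 called 3 genes, none a member. Sostdc1 at 0.62 (SE 0.346), Lmx1a at 0.84 (SE 0.478) and Car12 at 0.34 (SE 0.250) had the smallest p, each with an edgeR adjusted p of 1. Single libraries moved all 3. Sostdc1 stood at 0.31 without collagen domain male 3, 0.37 without PBS male 1, 0.96 without PBS male 2 and 0.04 without the 5 libraries. Lmx1a stood at 0.34 without collagen domain male 2, and Car12 at 0.09 without PBS male 3 and 0.58 without PBS male 2. No member separated the treatments in males in either direction, against 2.59% of genes higher and 2.36% lower. The median over members was -0.02 without collagen domain male 2 and -0.06 without the 5 libraries, so its direction rests on single libraries. It was 0.04 without PBS male 1 or collagen domain male 3, 0.09 without PBS male 3, 0.36 without PBS male 2 and 0.35 without collagen domain male 1. In both sexes at once, 0 members were higher without overlap, against 0.0313% of genes, and 0 lower, against 0.0366%.

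**Figure D5:**
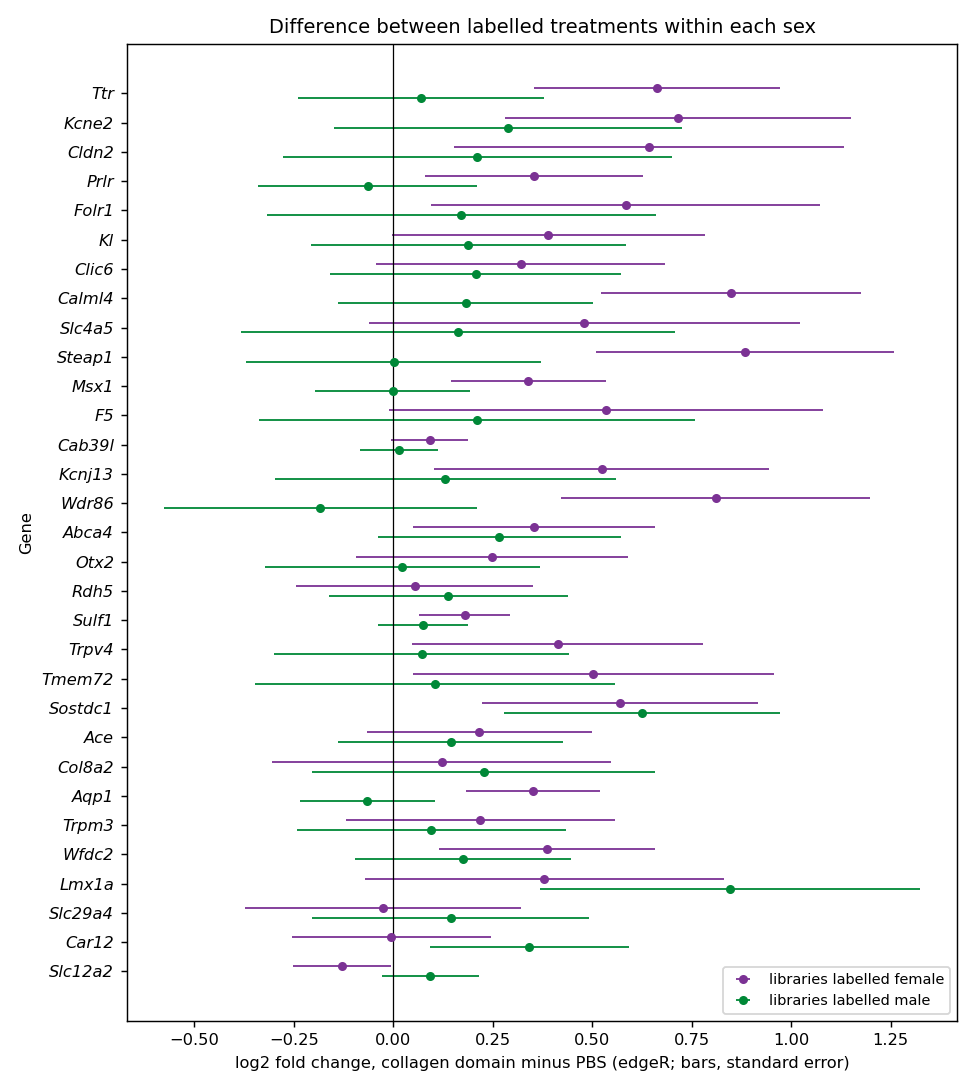
Log2 fold change of each member between collagen domain and PBS libraries in females (purple) and males (green), from edgeR, with bars for the standard error of each estimate. Most estimates lie right of 0 in both sexes, those of females further (median 0.38 against 0.14), and no member passed the test in either.

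The difference between the sexes in this response was tested as an interaction, male minus female. The members had a median of -0.23, with 7 of 31 above 0 (50.6% of all genes), and edgeR called 0 members and 0 genes (0%). It gave 0 members and 263 genes an unadjusted p under 0.05, and DESeq2 called 1 gene, no member. Wdr86 at -0.99 (SE 0.552), Aqp1 at -0.42 (SE 0.238) and Steap1 at -0.88 (SE 0.527) had the smallest p, each with an edgeR adjusted p of 1. The estimate for Wdr86 was -0.60 without collagen domain male 1, and without PBS male 2 those for Aqp1 and Steap1 were -0.20 and -0.38. The median over members ran from -0.44 without PBS female 3 to 0.02 without PBS female 1 when 1 library was left out, and was -0.63 without the 5 libraries. Between males and females over both treatments the median was -0.03, with 12 of 31 above 0 (49.4% of all genes), and edgeR called 0 members and 0 genes (0%). It gave 0 members and 377 genes an unadjusted p under 0.05, and DESeq2 called 8 genes, none a member. Xist and Ddx3y were thus not called by edgeR either, although Xist ran from 13 reads in PBS male 3 to 29255 in PBS male 1. The sex labels, on which the interaction also rests, were contradicted by reads in 4 libraries. So 0 calls cannot show that the members do not differ between males and females. Calml4 stood at 0.44 (SE 0.238), Lmx1a at -0.35 (SE 0.320) and Sostdc1 at 0.24 (SE 0.234), each with an edgeR adjusted p of 1. The median between the sexes ran from -0.15 without PBS female 1 to 0.08 without PBS female 3. Lmx1a ran from -0.62 without collagen domain male 2 to -0.21 without PBS female 2, and Sostdc1 was lowest at 0.10 without collagen domain male 3 or PBS male 2.

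Markers of other tissue were compared between the treatment labels as well. All 12 hypothalamic genes had a log2 fold change above 0, with a median of 0.44, and their summed level ran from 42.0 to 79.1 CPM in PBS libraries and from 56.8 to 148 CPM in collagen domain libraries. Of the 12 ependymal genes 10 were above 0, with a median of 0.15 and sums of 29.4 to 51.6 and 32.7 to 49.7 CPM. Fibroblast and meningeal genes had 3 of 12 above 0 (median -0.07), with sums of 102 to 157 and 106 to 161 CPM, and fenestrated endothelium 1 of 3 (median -0.04), with sums of 12.9 to 19.4 and 10.4 to 22.8 CPM. Cortical and neuronal genes had 4 of 8 above 0 (median 0.01), with sums of 6137 to 7226 and 6038 to 7284 CPM. Cerebellum and hindbrain genes had 1 of 17 above 0 (median -0.23), with sums of 254 to 1285 and 223 to 1406 CPM, and 8 of that list, Gabra6 and Hoxb3 among them, were at 0 in some library. None of these genes was called, and their part in the result was not tested.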

How the data were processed

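The table the authors deposited holds counts of reads, as whole numbers, for each Ensembl ID in 12 libraries. Libraries were made with a TruSeq version 2 kit and read as 75-base pairs on a NextSeq 500, per the labels' protocols. STAR, DESeq2 and GRCm39 are named per the submitters' processing notes, without a role; the counting tool and strand setting are not given in the sources used here, so overlapping and antisense genes cannot be told apart. Of 43629 IDs, 42462 took symbols from GENCODE M21 (GRCm38), which also gave exon lengths. Totals were 39272127 to 52323985 reads, and this depth leaves counting error highest for members with few reads. Libraries of 1 labelled group differed by chi-square values of 11.9 to 102 per degree of freedom, so none repeated another of its group. Pairs from different groups were not checked.

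Here, edgeR 4.0.16 in R 4.3.3 was run with filterByExpr on the 4 groups (19145 genes), TMM, robust quasi-likelihood F-tests and Benjamini-Hochberg adjustment over all genes (threshold 0.05, common biological coefficient of variation 0.178). Treatment and sex came from an additive fit, effects within a sex and the interaction from a fit of 4 groups. CPM uses TMM-scaled totals; correlations use log2 CPM with a prior count of 2, and Ttr was tested on log2(CPM + 1). Values after ± are SDs. A library went against its treatment label at 1000 or more C1qtnf3 reads with PBS or fewer with collagen domain. DESeq2 1.42.0 was an alternative. The edgeR and correlation tests were checked on simulated data with known answers, whose outcome is not quoted. Values in every library were given for Ttr and a fixed 17 others, and otherwise the 3 members of smallest p per contrast, the 15 other genes most like Ttr (1 is not reported here) and the 5 members least like it. Members, marker lists and tests were chosen with earlier results of these data known. Figures used Python 3.11.15 and matplotlib 3.10.9.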

Additional observations from a re-analysis of the deposited data

Results flagged for a closer look

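In 62 sets of 6 libraries, the 31 members in each treatment arm, 2 held a library far from the others by Dixon's gap criterion, which chance passes in about 1 set in 20. Steap1 stood at 1.86 CPM in PBS male 2, while the other 5 PBS libraries lay between 0.71 and 0.925 CPM. Wdr86 stood at 0.491 CPM in collagen domain male 1, while the other 5 collagen domain libraries lay between 1.68 and 2.35 CPM. Collagen domain male 1 was also the lowest library for Ttr.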

How the results depend on the processing

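No member was called between treatments or sexes, or in the interaction, by DESeq2, with relative log expression factors, without the filter, at a threshold of 0.1, with a cerebellum and hindbrain covariate, without the 5 libraries that contradict a label, or without any 1 library. Correlations between libraries of equal replicate number ran from -0.38 to 0.57. Libraries of different number were not compared, so whether these numbers pair the libraries is not known. With the replicate block 0 members were called, and the median of the members was 0.28 over both sexes, 0.39 in females and 0.07 in males. The Ttr difference ranged from 0.22 to 0.53 when 1 library was left out, the highest without collagen domain male 1, where p passed 0.05 in the exact permutation test. The count of members whose correlation with Ttr passed the adjustment was 0. It was 3 after removal of the cerebellum and hindbrain mean and 1 with 1000000 resamples. With 100000 resamples a single gene at the smallest possible p could not pass, so this count depends on the number of resamples and on ties at that p. Members with r above 0 and an unadjusted p under 0.05 numbered 12 without the 2 farthest libraries, against 24, and 20 to 25 without 1 library. The correlation of Slc12a2 reversed to -0.16 by Spearman rank, -0.037 after that removal, -0.20 in the 7 libraries below the mean, -0.13 without the 2 farthest, and ranged from -0.042 to 0.30 without 1 library, but was 0.74 without the 5 libraries that contradict a label. That of Slc29a4 reversed to -0.18 without the 2 farthest and was 0.72 without the 5, and that of Car12 ranged from -0.10 to 0.44 without 1 library. The causes were not tested. The lowest members, such as Lmx1a with 12 to 50 reads, carry the largest counting error.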

Other observations

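A second list of 39 genes known from the choroid plexus, none of them a member above, moved less evenly with Ttr. This list, too, was chosen with earlier results of these data known. Of these 39, 35 had r above 0, 15 had an unadjusted permutation p under 0.05 with r above 0 and 4 had r of 0.8 or more, against 2.17% and 0.183% of all genes. Those 4 were Slc2a12, a hexose transporter (r = 0.88), Krt18, a keratin of simple epithelia (0.87), Slc39a4, a zinc importer (0.83), and Enpp2, the secreted enzyme autotaxin (0.81), which ran from 277 to 691 CPM. The lowest was Kcnq1, a potassium channel that pairs with Kcne2, with r = -0.64 (permutation p = 0.0237; rho = -0.73, permutation p = 0.00955; r = -0.72 without collagen domain male 1 and PBS female 1) and levels of only 0.256 to 0.663 CPM. None of the 39 passed the adjustment over all genes. Between the labelled treatments 29 of 39 were above 0, with a median log2 fold change of 0.09, and edgeR called 0 (0% of all genes). The 4 of smallest p were Slco1c1, a thyroid hormone transporter, at 0.18 (SE 0.0745), Igfbp2 at 0.12 (SE 0.0621), Slc16a8, a lactate transporter, at 0.32 (SE 0.184), and Slc39a4 at 0.37 (SE 0.247).

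Since Otx2, Abca4, Rdh5 and Ttr are also made in the eye, genes of retina and pineal gland were read as well. Crx and Asmt, which mark photoreceptors and pinealocytes, were at 0 in some library. Of 9 measured genes of that list 4 had r above 0 with Ttr and 1 an unadjusted permutation p under 0.05, and their part in the result was not tested. Between the labelled treatments 6 of 9 were above 0 (median 0.04), with summed levels of 26.5 to 31.4 CPM with PBS and 25.6 to 32.5 CPM with collagen domain.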
